A study of Mus musculus with 12 samples.

Results

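Sytl1, Cytip, Gfpt2, Cd83, Slc16a11, Myo7b and Eid3 are 7 mouse genes, of 33615 gene symbols measured, that stood higher than in Sham hearts after ischemia and reperfusion (I/R) or after I/R with the compound ML264. They were chosen by hand for those rises, which are therefore given below as a description and not as a tested result. The series profiled mouse heart tissue in 12 bulk RNA-seq libraries. The groups were I/R + ML264 (30 min of ischemia and 2 h of reperfusion together with ML264, an inhibitor of the Kruppel-like transcription factor KLF5), I/R (the same injury without ML264) and Sham (sham operation), with 4 libraries each. The labels name the tissue only as heart and give no strain, age, sex, dose of ML264 or time at which it was given. Nor do they state whether libraries are separate animals, and the p-values therefore describe only how these libraries varied.

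The 7 genes belong to no single pathway. Ischemia followed by reperfusion sets off an early transcriptional response in the heart, in which stress and cytokine signals induce genes in heart muscle, vessel and resident immune cells while leukocytes and platelets arrive from the blood. Cytip and Cd83 are best known from activated lymphocytes and dendritic cells, and Sytl1 from regulated secretion. Gfpt2 and Slc16a11 belong to metabolism, Myo7b to the cytoskeleton of microvilli, and Eid3 to a family of nuclear inhibitors of transcription. In bulk tissue, more cells of a type and more RNA per cell cannot be told apart.

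Promoter windows were examined because the 7 genes were high in the same libraries. RefSeq windows from 250 bases before to 50 after the start (GRCm38.p6) were matched by symbol for Sytl1, Cytip, Gfpt2 and Slc16a11. Cd83 and Eid3 had no window under their symbols, and Myo7b was left out of the search and is not reported here. Only 1 start per gene was searched. The windows of Cytip (chr2:58160073-58160372, minus strand) and Slc16a11 lie inside the annotated spans of these genes, and starts further upstream were not searched. The sequence of Sytl1, the gene with the steepest difference from Sham, lies at chr4:133263038-133263337 on the minus strand. Those of Gfpt2, at chr11:49793905-49794204, and Slc16a11, at chr11:70213660-70213959, both on the plus strand, hold matches to the motifs searched. Each is written 5′ to 3′ on the strand of its gene, and capitals mark motif matches on either strand.
Sytl1 promoter: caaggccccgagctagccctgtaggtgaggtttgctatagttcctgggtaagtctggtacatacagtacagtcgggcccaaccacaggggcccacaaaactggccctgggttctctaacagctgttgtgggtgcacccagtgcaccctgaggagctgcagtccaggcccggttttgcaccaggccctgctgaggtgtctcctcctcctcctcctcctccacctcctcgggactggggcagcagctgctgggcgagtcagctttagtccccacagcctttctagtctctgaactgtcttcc
Gfpt2 promoter: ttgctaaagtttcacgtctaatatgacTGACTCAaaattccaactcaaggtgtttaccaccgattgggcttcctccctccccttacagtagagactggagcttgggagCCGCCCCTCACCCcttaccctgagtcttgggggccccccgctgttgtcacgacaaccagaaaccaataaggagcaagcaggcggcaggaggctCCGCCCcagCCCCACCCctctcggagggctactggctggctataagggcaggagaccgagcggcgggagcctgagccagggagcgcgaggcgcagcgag
Slc16a11 promoter: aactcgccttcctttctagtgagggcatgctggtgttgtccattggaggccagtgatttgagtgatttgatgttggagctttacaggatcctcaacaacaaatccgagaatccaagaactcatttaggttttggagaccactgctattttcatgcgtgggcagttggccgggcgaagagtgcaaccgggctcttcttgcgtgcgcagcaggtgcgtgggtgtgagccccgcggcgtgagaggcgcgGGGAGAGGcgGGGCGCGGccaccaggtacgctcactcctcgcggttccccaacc
In the Gfpt2 window, the letters CCNCNCCC, which resemble the box bound by Kruppel-like factors, began 137 and 40 bases before the start. The GC box GGGCGG lay on the opposite strand in the same window, from 142 and from 49 bases before the start, and the first of these overlapped a CCNCNCCC match by its last base. The AP-1 letters TGANTCA began 223 bases before the Gfpt2 start. In Slc16a11, CCNCNCCC occurred on the opposite strand at 4 bases before the start and again 6 bases into the transcript. Neither the Sytl1 window nor the Cytip window held a match to these motifs or to the others searched on both strands. Those others were TGACGTCA (CRE), the NF-kB site, TTCNNNGAA (STAT), TGACNNNGC (NRF2), the heat shock element and CACGTG (E-box). Of 32817 mouse promoter windows of the same length, 49.5% held CCNCNCCC, 35.6% the GC box and 7.8% the AP-1 letters. The shares for the motifs with no match were 1.8% for CRE, 1.6% for NF-kB, 8.3% for STAT, 12.4% for NRF2, 0.6% for the heat shock element and 7.1% for the E-box. A match is a string of letters and not a bound site. The windows of Sytl1, Gfpt2, Slc16a11 and Cytip were 60.0%, 60.7%, 58.0% and 46.0% G or C, against a median of 52.7% over all windows (quartiles 45.7% and 61.7%).

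Depth was 22.26 to 29.93 M estimated counts per library, so the limit that 0 counts allow, 3 counts, stands for 0.1 to 0.135 counts per 1 M counts of a library (CPM). All 7 genes passed the filter on low counts. Klf5, the gene of the inhibited factor, had 3 to 9 counts in the I/R + ML264 libraries, 2 to 15 in I/R and 3 to 10 in Sham. Library 2 of I/R + ML264 stood apart from the others in a multidimensional scaling, on the side of the I/R libraries along its first dimension, and the fold changes of I/R + ML264 are also given without it. The Y-linked gene Ddx3y was at 0.106 to 0.484 CPM in I/R + ML264 libraries 1 and 2 and I/R libraries 1 and 4, and at 38.8 to 52 CPM in all others, Sham included. The clock gene Arntl was at 10.4 to 15.3 CPM in I/R library 1 and Sham libraries 2 and 3 and at 1.05 to 3.26 CPM elsewhere. Cardiomyocyte markers summed to 31300 to 36100 CPM in I/R + ML264, 31300 to 36100 CPM in I/R and 29400 to 33600 CPM in Sham.

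Every library of both injured groups lay above every Sham library for all 7 genes. Over the 15952 genes tested, the groups were likewise separated and higher for 3.99% in I/R + ML264 against Sham and for 8.54% in I/R against Sham. By the edgeR test used throughout, 6 of the 7 were called higher in I/R + ML264 against Sham (0.257% of all genes) and 7 in I/R against Sham (4.58%), the exception being Sytl1. The calls in I/R + ML264 against Sham were often lost among the 22 alternative settings, in 15 for Gfpt2, 14 for Myo7b, 8 for Slc16a11, 7 for Eid3, 6 for Cytip and 5 for Cd83. All 6 were lost with the Y-linked covariate and without Sham library 3 or Sham library 4. Since the genes were chosen for these differences, nothing is read from those counts. The median log2 fold change of the 7 was 1.85 in I/R + ML264 against Sham and 2.37 in I/R against Sham, both with 0 over all genes tested, and the 2 comparisons share the Sham libraries. Between the injured groups, none of the 7 passed edgeR's quasi-likelihood test after Benjamini-Hochberg adjustment over all genes (called, an adjusted p under 0.05), beside 0.0502% of all genes tested. All 7 fold changes of I/R + ML264 over I/R were below 0, with a median log2 value of -0.54 against 0 over all genes. For Slc16a11 and Eid3 the I/R + ML264 libraries all lay below the I/R libraries, as they did for 3.08% of all genes, and of these Eid3 is uncertain because it lies inside another gene. An unadjusted p under 0.05 was reached by 2 of the 7, the same Slc16a11 and Eid3, and DESeq2 called 1, Eid3. Over all 15952 genes, 1659 reached an unadjusted p under 0.05 and DESeq2 called 144 in this comparison. These libraries are also the ones from which the genes were chosen.

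**Figure D1:**
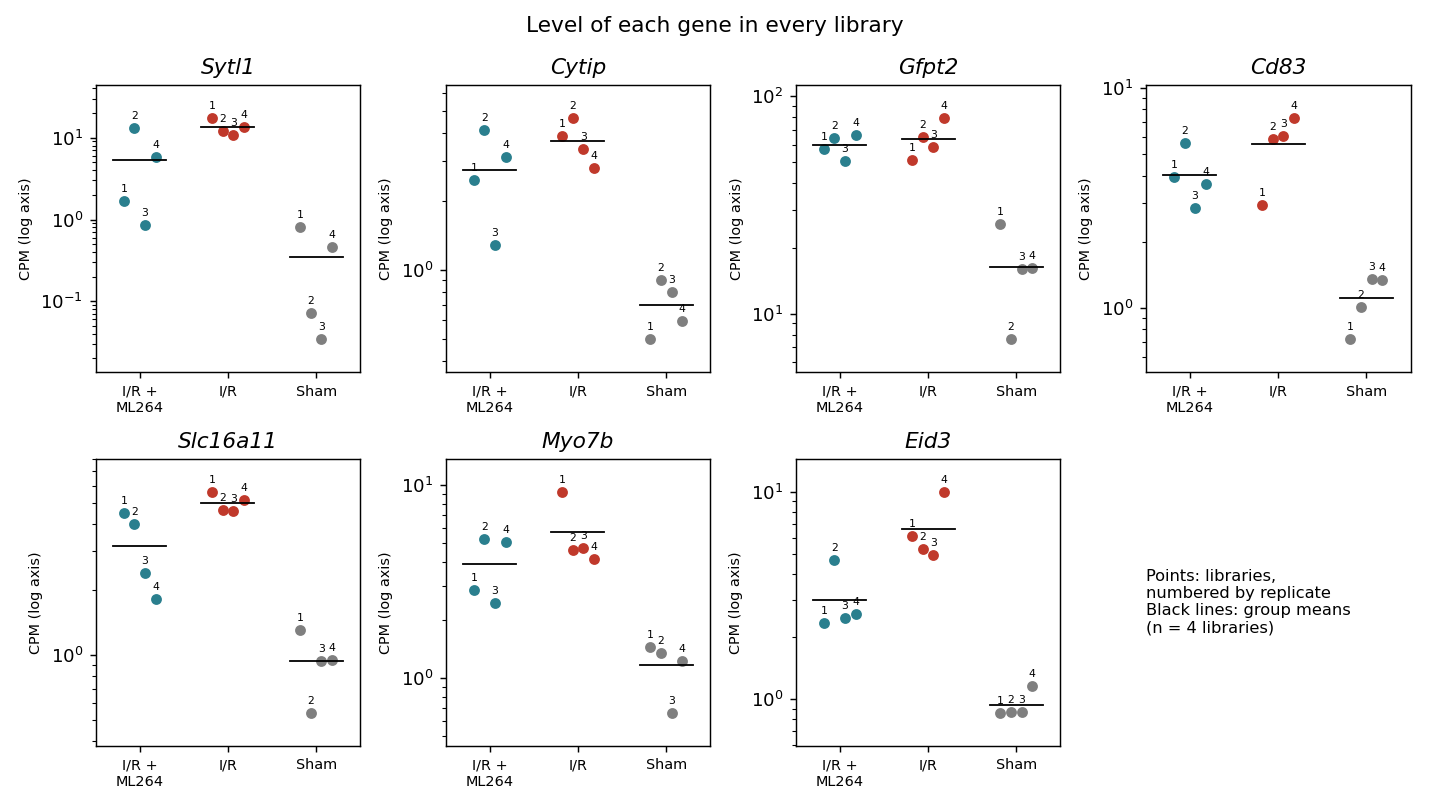
CPM (log axis) of each of the 7 genes in every library, in columns for I/R + ML264, I/R and Sham. Points are libraries with their replicate numbers and black lines are group means (n = 4). All I/R + ML264 and I/R points lie above all Sham points, while the 2 injured groups overlap except for Slc16a11 and Eid3.

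Cytip, the cytohesin-interacting protein, is a scaffold that binds cytohesin-1 and is known from lymphocytes and dendritic cells, where it modulates integrin adhesion. The gene lies at chr2:58129137-58195532 on the minus strand (GRCm38), with an annotated antisense gene, Gm13546, that shares no exonic base with it. It had 2.48, 4.1, 1.29 and 3.13 CPM in I/R + ML264 libraries 1 to 4, 3.88, 4.64, 3.38 and 2.81 CPM in I/R, and 0.498, 0.905, 0.799 and 0.599 CPM in Sham. The lowest injured library, I/R + ML264 library 3, was still above the highest Sham library, and the injured groups overlapped. The group means were 2.75 ± 1.18 CPM in I/R + ML264, 3.68 ± 0.777 CPM in I/R and 0.7 ± 0.185 CPM in Sham (SD, n = 4 each). On the log2 scale the difference from Sham was 1.96 ± 0.32 (SE) in I/R + ML264 and 2.37 ± 0.32 in I/R. I/R + ML264 against I/R gave -0.41 (95% interval -1.02 to 0.19, edgeR adjusted p = 0.647). In the 15 other tested genes of cytohesins and beta-2 integrin adhesion, 1 rose and 1 fell in I/R against Sham. None of the 15 was called in the comparisons with I/R + ML264. The gene lists here and below leave out the 7 genes themselves. Over all genes tested, 4.58% were called higher in I/R against Sham, and 7.75% in either direction. Icam1, the endothelial ligand of these integrins, rose, with 13.5 ± 2.1 CPM in I/R and 5.45 ± 0.414 CPM in Sham (log2 fold change 1.31 ± 0.23, edgeR adjusted p = 0.00528). Cyth4, a cytohesin of blood cells, fell, with 1.09 ± 0.377 CPM in I/R and 3.55 ± 1.72 CPM in Sham (-1.71 ± 0.32, edgeR adjusted p = 0.00528), a call lost with Arntl as a covariate or with only the libraries above 5 CPM of Ddx3y.

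Cd83 encodes a surface glycoprotein of the immunoglobulin superfamily that marks mature dendritic cells and is also induced on activated lymphocytes and macrophages. It lies at chr13:43784775-43803132 on the plus strand. Its levels were 3.94, 5.65, 2.84 and 3.66 CPM in I/R + ML264, 2.93, 5.86, 6.07 and 7.3 CPM in I/R, and 0.724, 1.01, 1.35 and 1.34 CPM in Sham. I/R library 1 was low within its group, at the level of the lowest I/R + ML264 library, and all injured libraries were above all Sham libraries. Means were 4.02 ± 1.18 CPM in I/R + ML264, 5.54 ± 1.85 CPM in I/R and 1.11 ± 0.3 CPM in Sham (SD, n = 4 each), or 1.85 ± 0.30 and 2.30 ± 0.29 log2 units above Sham (SE) in I/R + ML264 and in I/R. The injured groups differed by -0.46 (95% interval -1.02 to 0.11, edgeR adjusted p = 0.583). Among 12 other tested genes of antigen-presenting cell activation, 2 rose in I/R against Sham, none fell, and none was called in the other comparisons. The costimulatory ligand Cd86 had 6.27 ± 1.55 CPM in I/R and 3.36 ± 0.834 CPM in Sham (0.90 ± 0.22, edgeR adjusted p = 0.0202), a call lost without I/R library 3 or Sham library 2 and with Arntl as a covariate. The NF-kB subunit Relb had 2.88 ± 0.785 CPM in I/R and 1.61 ± 0.295 CPM in Sham (0.84 ± 0.24, edgeR adjusted p = 0.0432). Leaving out 1 library at a time ended that call in 9 of 12 fits; it held only without I/R + ML264 libraries 2 or 3 or I/R library 3, and was lost in 7 of 10 other settings. The list of 14 NF-kB feedback genes had 7 called higher and 0 lower in I/R against Sham and none called elsewhere, with Birc3, an inhibitor of apoptosis protein, at 1.41 ± 0.18 (edgeR adjusted p = 0.000525). Beside both lists, 4.58% of all genes tested were called higher in I/R against Sham.

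Markers of immune cells and platelets also differed between the libraries. Neutrophil markers summed to 6.49 to 23.2 CPM in I/R + ML264, 10.7 to 25.1 CPM in I/R and 6.02 to 8.62 CPM in Sham. Of 8 tested, 3 were called higher in I/R against Sham (Clec4e, Trem1 and Clec4d, each lost without some of the libraries), beside 4.58% of all genes. Ly6g had 7 and Elane 2 counts over all 12 libraries. Platelet markers summed to 2.23 to 106 CPM in I/R + ML264, 4.02 to 141 CPM in I/R and 2.5 to 15.3 CPM in Sham, with 0 of 5 called. Both sums were highest in I/R library 4, which had the least Cytip and the most Cd83 of its group. Monocyte and macrophage markers summed to 121 to 151, 130 to 153 and 98.8 to 166 CPM in I/R + ML264, I/R and Sham, and of 14 tested 1 was higher and 2 lower in I/R against Sham. Dendritic cell markers summed to 26.4 to 28.6 CPM in I/R + ML264, 22.7 to 25.4 CPM in I/R and 30.8 to 34.2 CPM in Sham, lower in every injured library than in any Sham library. Of the 10 listed 6 were tested, with 1 called lower in I/R against Sham (Zbtb46). Endothelial markers summed to 456 to 562 CPM in I/R + ML264, 465 to 507 CPM in I/R and 538 to 627 CPM in Sham. Of those 10 tested, 2 were called lower in I/R against Sham (Tek and Kdr). T, B and NK cell markers summed to 21.3 to 28.1 CPM in I/R + ML264, 20.7 to 35.8 CPM in I/R and 18.9 to 23.9 CPM in Sham, with 0 of 6 called. The part of these cells in the levels of Cytip, Cd83 and Sytl1 was not tested.

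Sytl1, synaptotagmin-like 1, binds the GTPase Rab27 and takes part in the docking and release of secretory granules. It lies at chr4:133253090-133263113 on the minus strand, and on the log2 scale its levels spread the most of the 7. It had 1.7, 13.1, 0.857 and 5.78 CPM in I/R + ML264, 17.4, 12, 10.8 and 13.5 CPM in I/R, and 0.814, 0.0724, 0.0347 and 0.458 CPM in Sham. In estimated counts these were 48, 405, 22 and 131 in I/R + ML264, 474, 305, 269 and 360 in I/R, and 18, 2, 1 and 13 in Sham, so Sham libraries 2 and 3 were below the limit of 3 counts. The I/R libraries were all high and close together, whereas I/R + ML264 library 2 reached the I/R range and library 3 was next to the highest Sham library. Means were 5.35 ± 5.58 CPM in I/R + ML264, 13.4 ± 2.85 CPM in I/R and 0.345 ± 0.367 CPM in Sham (SD, n = 4 each). The log2 difference from Sham was 4.04 ± 1.01 (SE) in I/R + ML264 and 5.35 ± 1.00 in I/R. Between the injured groups it was -1.31 (95% interval -2.97 to 0.34, edgeR adjusted p = 0.583) and, without I/R + ML264 library 2, -2.29 (edgeR adjusted p = 0.194). None of 13 other tested genes of the synaptotagmin-like family and the Rab27 machinery was called in any of the 3 comparisons. The paralog Sytl4 averaged 9.22 ± 1.35 CPM in I/R + ML264, 9.9 ± 2.02 CPM in I/R and 8.81 ± 1.54 CPM in Sham, and Sytl2 1.18 ± 0.403, 1.25 ± 0.228 and 1.74 ± 0.59 CPM in the same groups (SD, n = 4 each). Sytl3 averaged 0.59 ± 0.522 CPM in I/R + ML264, 0.573 ± 0.278 CPM in I/R and 0.448 ± 0.176 CPM in Sham, and Sytl5, with 8, 13 and 22 counts in those groups, did not pass the filter.

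The 2 genes within 5 kb of Sytl1 also stood higher in I/R than in Sham. Map3k6, a kinase of the MAP kinase kinase kinase class, ends 161 bases from Sytl1 on the opposite strand. It had 17.4 ± 11.5 CPM in I/R + ML264, 31.3 ± 4.75 CPM in I/R and 3.79 ± 3.13 CPM in Sham (SD, n = 4 each), and I/R exceeded Sham (log2 fold change 3.07 ± 0.72, edgeR adjusted p = 0.0332). The call of Map3k6 was lost without any 1 of the I/R libraries or of Sham libraries 2, 3 or 4, and in 4 of 10 other settings. I/R + ML264 against Sham gave 2.22 ± 0.71 for Map3k6 (edgeR adjusted p = 0.227). Tmem222, which encodes a transmembrane protein and lies 2932 bases away, averaged 2.05 ± 1.0 CPM in I/R + ML264, 4.18 ± 1.39 CPM in I/R and 1.35 ± 0.369 CPM in Sham, and rose in I/R against Sham (1.62 ± 0.33, edgeR adjusted p = 0.00806). The libraries do not mark strand. No exonic base of Map3k6 or Tmem222 overlaps Sytl1, and no 31-base word of the Sytl1 transcripts occurs in those of another gene. These checks cannot see reads that run past the annotated end of a neighbour. How many such reads were counted to Sytl1 was not tested.

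Gfpt2 encodes a form of glutamine:fructose-6-phosphate amidotransferase, the entry enzyme of the hexosamine pathway, which makes UDP-N-acetylglucosamine for the glycosylation of proteins. The gene lies at chr11:49794178-49838613 on the plus strand and had the most counts of the 7 in every group. Levels were 57.4, 64.2, 50.2 and 66.1 CPM in I/R + ML264, 50.8, 65.3, 58.2 and 79.5 CPM in I/R, and 25.8, 7.64, 16.1 and 16.2 CPM in Sham. The 8 injured libraries were intermixed, and Sham library 1, the highest of its group, was far below all of them. Means were 59.5 ± 7.22 CPM in I/R + ML264, 63.4 ± 12.2 CPM in I/R and 16.4 ± 7.41 CPM in Sham (SD, n = 4 each), which put Gfpt2 1.86 ± 0.30 and 1.95 ± 0.30 log2 units above Sham (SE) in I/R + ML264 and in I/R. The injured groups differed by -0.09 (95% interval -0.74 to 0.55, edgeR adjusted p = 0.941), which turned to 0.03 without I/R library 4. The paralog Gfpt1, which catalyses the same step, averaged 39.3 ± 1.06 CPM in I/R + ML264, 39.0 ± 4.33 CPM in I/R and 39.8 ± 3.67 CPM in Sham (SD, n = 4 each). For Gfpt1 the log2 difference was -0.02 (95% interval -0.21 to 0.17) in I/R + ML264 against Sham and -0.03 (-0.22 to 0.16) in I/R against Sham. Of 12 other tested genes of the hexosamine pathway, 0 were called higher and 1 lower in I/R against Sham, with a median log2 fold change of -0.22 against 0 over all genes. That gene was Ogt, the transferase that places N-acetylglucosamine on proteins, with 72.9 ± 8.32 CPM in I/R and 92.9 ± 4.74 CPM in Sham (-0.35 ± 0.09, edgeR adjusted p = 0.0218). The Ogt call was lost without I/R libraries 2 or 4 or Sham libraries 2 or 4 and in 3 of 10 other settings. None of the list was called in I/R + ML264 against either group.

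Slc16a11 is a member of the monocarboxylate transporter family and, in human, is known for variants associated with type 2 diabetes. It lies at chr11:70212752-70216417 on the plus strand. It had 4.51, 4.0, 2.38 and 1.81 CPM in I/R + ML264, 5.64, 4.64, 4.59 and 5.17 CPM in I/R, and 1.31, 0.543, 0.938 and 0.951 CPM in Sham. The 3 groups did not overlap, with I/R highest, I/R + ML264 between and Sham lowest, and I/R + ML264 libraries 1 and 2 reached almost to the I/R libraries. Means were 3.17 ± 1.29 CPM in I/R + ML264, 5.01 ± 0.496 CPM in I/R and 0.936 ± 0.314 CPM in Sham (SD, n = 4 each). The log2 difference from Sham was 1.78 ± 0.30 (SE) in I/R + ML264 and 2.43 ± 0.29 in I/R. I/R + ML264 against I/R gave -0.65 (95% interval -1.21 to -0.09, edgeR adjusted p = 0.396), an interval below 0, while the p did not pass after adjustment over all genes. Within I/R + ML264 the libraries with little Ddx3y were the higher ones, at 4.0 to 4.51 CPM, against 1.81 to 2.38 CPM in those with Ddx3y. I/R was split the same way, at 5.17 to 5.64 against 4.59 to 4.64 CPM, and all Sham libraries held Ddx3y. Sytl1 and Eid3 in I/R and Cd83 in I/R + ML264 were also split so, while in the other injured groups the libraries with and without Ddx3y overlapped. With only the Ddx3y libraries, Slc16a11 in I/R + ML264 differed by -1.14 log2 units from I/R and by 1.17 from Sham (edgeR adjusted p = 0.177 against Sham). The part of this split in the levels of Slc16a11 and the other genes was not tested.

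Slc16a13, another transporter of the family, ends 372 bases from Slc16a11 on the opposite strand. It had 7.99 ± 2.0 CPM in I/R + ML264, 7.41 ± 0.831 CPM in I/R and 2.62 ± 0.884 CPM in Sham (SD, n = 4 each). Slc16a13 rose in I/R + ML264 against Sham (log2 fold change 1.62 ± 0.23, edgeR adjusted p = 0.00583) and in I/R against Sham (1.5 ± 0.23, edgeR adjusted p = 0.00118), and I/R + ML264 against I/R gave 0.11 (95% interval -0.34 to 0.56). The first of these calls was lost with only the libraries above 5 CPM of Ddx3y. How many reads from beyond the annotated end of Slc16a13 were counted to Slc16a11 was not tested. Slc16a3, the lactate exporter MCT4, had 2.07 ± 1.01 CPM in I/R + ML264, 3.0 ± 0.442 CPM in I/R and 0.795 ± 0.394 CPM in Sham, and rose in I/R against Sham (1.92 ± 0.41, edgeR adjusted p = 0.0115). For I/R against Sham, these 2 were the genes called higher among 13 tested of the family other than Slc16a11. Of the 13, 0 were called lower, and the median log2 fold change was 0.01. In I/R + ML264 against Sham, Slc16a13 was the 1 called among the 13, and none was called between the injured groups.

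Myo7b is an unconventional myosin of the tips of microvilli in gut and kidney epithelium, where it belongs to the complex that links neighbouring microvilli. It lies at chr18:31959234-32036961 on the minus strand, with an antisense gene, Gm16344, and a processed pseudogene, Gm16345, that share no exonic base with it. Its levels were 2.87, 5.29, 2.45 and 5.07 CPM in I/R + ML264, 9.26, 4.6, 4.75 and 4.16 CPM in I/R, and 1.45, 1.34, 0.66 and 1.23 CPM in Sham. I/R library 1 stood far above the other 3 of its group, which lay below the highest I/R + ML264 library, and all Sham libraries were lower than all injured ones. Means were 3.92 ± 1.47 CPM in I/R + ML264, 5.69 ± 2.4 CPM in I/R and 1.17 ± 0.351 CPM in Sham (SD, n = 4 each). These were 1.75 ± 0.34 and 2.29 ± 0.34 log2 units above Sham (SE) in I/R + ML264 and in I/R, and the injured groups differed by -0.54 (95% interval -1.2 to 0.12, edgeR adjusted p = 0.578). The paralog Myo7a averaged 4.7 ± 1.58 CPM in I/R + ML264, 4.53 ± 1.03 CPM in I/R and 4.48 ± 1.13 CPM in Sham, with an I/R against Sham log2 difference of 0.02 (95% interval -0.51 to 0.54). Of 20 other tested unconventional myosins and microvillar linkers, 0 were called higher and 1 lower in I/R against Sham, and none in the other comparisons. The 1 was Myo1f, a myosin of leukocytes, with 1.86 ± 0.555 CPM in I/R and 3.34 ± 0.761 CPM in Sham (-0.85 ± 0.25, edgeR adjusted p = 0.0461). That call held in only 3 of the 12 fits without 1 library, those without I/R + ML264 library 2, I/R library 2 or Sham library 1, and was lost in 4 of 10 other settings. Markers of gut, kidney and lung epithelium summed to 3.43 to 4.62 CPM in I/R + ML264, 2.88 to 3.7 CPM in I/R and 2.58 to 5.14 CPM in Sham. Of the 10 listed, 3 passed the filter and none was called in any comparison, while Epcam and Krt8 had 4 counts each and Sftpc 0 over all libraries. Lims2, which ends 615 bases from Myo7b, averaged 15.8 ± 1.76 CPM in I/R + ML264, 13.0 ± 1.77 CPM in I/R and 14.1 ± 3.41 CPM in Sham (SD, n = 4 each) and was not called.

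Eid3, EP300-interacting inhibitor of differentiation 3, is known in human as an inhibitor of coactivator function and as a relative of a subunit of the SMC5/6 chromosome complex. It is a gene of 1 exon at chr10:82866626-82867930 on the plus strand, inside Txnrd1 (chr10:82833951-82897712) on the same strand, with no exonic base shared. Unspliced Txnrd1 reads could be counted to Eid3, so its values are uncertain, and how many were was not tested. It had 2.34, 4.68, 2.45 and 2.56 CPM in I/R + ML264, 6.15, 5.31, 4.95 and 10.0 CPM in I/R, and 0.86, 0.869, 0.868 and 1.16 CPM in Sham. The 3 groups did not overlap, and I/R + ML264 library 2 alone came close to the I/R libraries. Means were 3.01 ± 1.12 CPM in I/R + ML264, 6.6 ± 2.32 CPM in I/R and 0.94 ± 0.149 CPM in Sham (SD, n = 4 each), or 1.68 ± 0.29 and 2.80 ± 0.28 log2 units above Sham (SE) in I/R + ML264 and in I/R. I/R + ML264 against I/R gave -1.13 (95% interval -1.67 to -0.59, edgeR adjusted p = 0.124). Without I/R + ML264 library 2 the difference was -1.43 and passed (edgeR adjusted p = 0.0293), and with all libraries it passed in DESeq2 (-1.13, adjusted p = 0.0182). Library 2 was singled out from these data and was the highest of its group for Eid3. Leaving it out therefore had to move the difference further below 0, and that pass is a description only. Over all alternatives the value was between -1.43 and -0.86, with adjusted p from 0.0182 to 0.348. Txnrd1, the cytosolic thioredoxin reductase, had 22.1 ± 5.74 CPM in I/R + ML264, 31.5 ± 8.3 CPM in I/R and 17.4 ± 2.02 CPM in Sham (SD, n = 4 each). Txnrd1 rose in I/R against Sham by 0.85 ± 0.19 log2 units (edgeR adjusted p = 0.0194), a call lost without Sham libraries 1, 2 or 4 and with either the Y-linked or the Arntl covariate. Like Eid3, Txnrd1 was highest in I/R library 4, and its I/R + ML264 against I/R value was -0.51 ± 0.19 (edgeR adjusted p = 0.374). None of 11 other tested genes of the EID family and the SMC5/6 complex was called in any comparison. Eid3 is known as abundant in testis in human, and germ line markers summed here to 2.77 to 4.49 CPM in I/R + ML264, 3.52 to 4.6 CPM in I/R and 3.48 to 5.14 CPM in Sham.

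Levels can be compared between genes only per length, which 1 listed transcript each allowed for Myo7b (6621 bases) and Eid3 (1305 bases). Per kilobase, Eid3 averaged 2.31 ± 0.857 CPM in I/R + ML264, 5.06 ± 1.78 CPM in I/R and 0.72 ± 0.114 CPM in Sham. Myo7b averaged 0.593 ± 0.222 CPM per kilobase in I/R + ML264, 0.86 ± 0.362 in I/R and 0.177 ± 0.053 in Sham (SD, n = 4 each). Eid3 was the higher of the 2 in each group on this scale. This order is uncertain, since unspliced Txnrd1 reads could be counted to Eid3, as stated above.

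**Figure D2:**
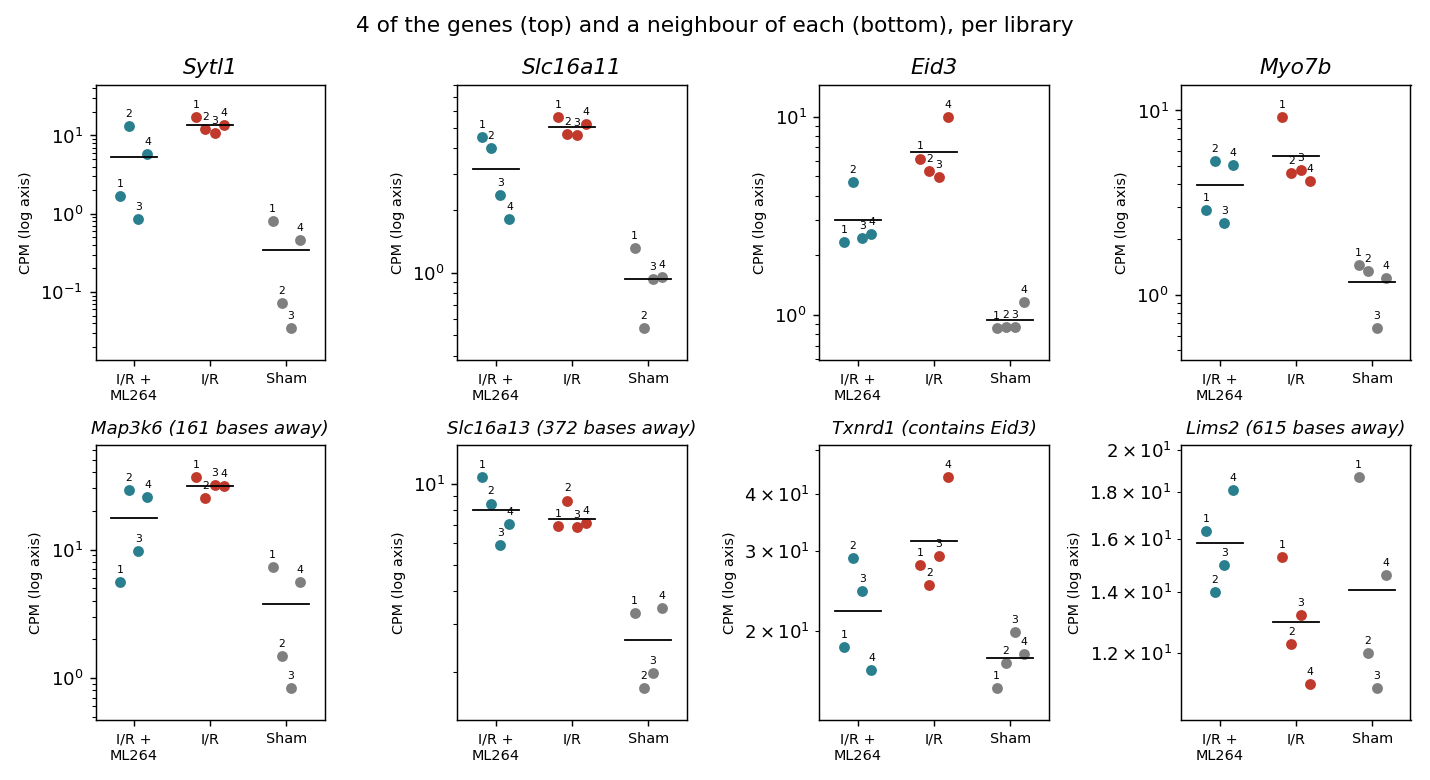
CPM (log axes) per library for Sytl1, Slc16a11, Eid3 and Myo7b (top) and a neighbouring gene of each (bottom), in I/R + ML264, I/R and Sham. Points are libraries with replicate numbers and black lines are group means (n = 4). Map3k6 spans 5.6 to 28.9 CPM in I/R + ML264 as Sytl1 spans 0.857 to 13.1, Slc16a13 has overlapping injured groups where Slc16a11 has separate ones, and the Lims2 groups overlap.

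The difference between the injured groups was read against library 2 of I/R + ML264. That library was the highest of its group for 5 of the 7 genes, all except Gfpt2 and Slc16a11. It was the highest for 28.5% of all genes tested and for 58.5% of the 731 genes called higher in I/R against Sham. The other 3 I/R + ML264 libraries all lay below every I/R library for Sytl1, Slc16a11 and Eid3, 3 of the 7, against 6.68% of all genes and 45.7% of those 731. Without library 2 the log2 difference from I/R was -0.68 for Cytip, -0.13 for Gfpt2, -0.66 for Cd83, -0.78 for Slc16a11 and -0.72 for Myo7b, none of them called, beside the values of Sytl1 and Eid3 above. With only the libraries that held Ddx3y, 2 in each injured group, it was -1.8 for Sytl1, -0.87 for Cytip, -0.09 for Gfpt2, -0.88 for Cd83, -0.32 for Myo7b and -1.03 for Eid3. Against Sham, the log2 difference of I/R + ML264 without library 2 was 3.06 for Sytl1, 1.7 for Cytip, 1.82 for Gfpt2, 1.64 for Cd83, 1.65 for Slc16a11, 1.57 for Myo7b and 1.37 for Eid3. Of the 6 calls against Sham, 5 were lost without it, all except that of Cd83. Between the injured groups, all 7 genes were below 0 both without library 2 and among the Ddx3y libraries. Library 2 was at 1.11 to 4.7 times the mean of the other 3 for these genes, so leaving it out could only lower the values. Among the Ddx3y libraries none of the 7 was called (edgeR adjusted p = 0.306 to 0.979). Both subsets reuse the libraries from which the genes were chosen, and nothing further is read from the shared direction.

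**Figure D3:**
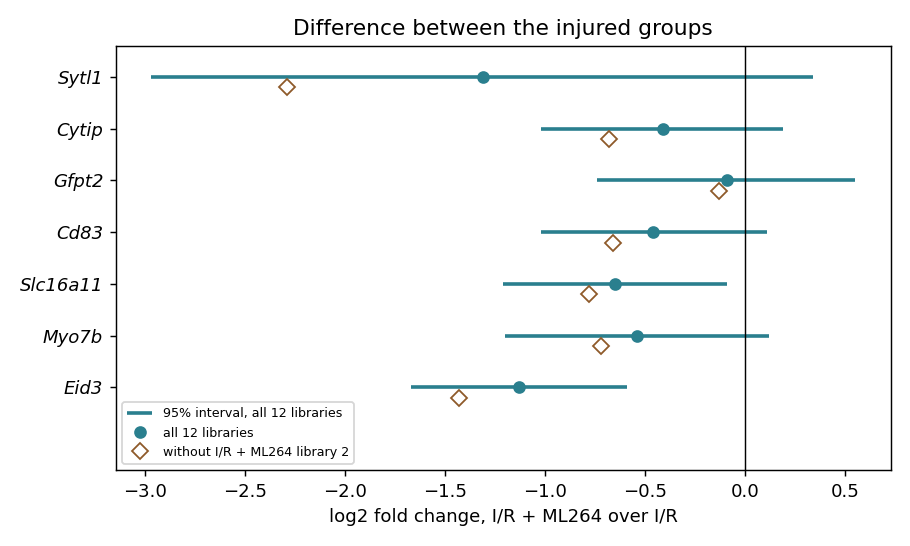
log2 fold change of I/R + ML264 over I/R (horizontal axis) for the 7 genes. Filled points and lines are the estimates and 95% intervals from all 12 libraries, and open diamonds the estimates without I/R + ML264 library 2. The interval is wholly below 0 for Slc16a11 (-0.65) and Eid3 (-1.13), and Gfpt2 (-0.09) lies closest to 0.

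The genes with the most similar profiles were found by the root mean square difference of log2 CPM over the 12 libraries, each gene centred on its own mean, among 10741 candidates. A smaller value is more alike, and the candidates share libraries and depth with the 7 genes. The 12 libraries include Sham, so the distances also take in the rise against Sham for which the 7 genes were chosen. Shared regulation was not tested. Nearest to Sytl1 were the cytokine Il6 at 0.69 log2 units and the chemokine Cxcl2 at 0.83, followed by its neighbour Map3k6 at 0.96, while Sytl1 itself departed from its own mean by 2.53. Genes close to Cytip included the NF-kB inhibitor Tnfaip3 at 0.38 and the sphingosine kinase Sphk1 at 0.46. Gfpt2 was most like the mitochondrial ATP-Mg/phosphate carrier Slc25a25 at 0.27, the kinase Plk3 at 0.31 and the AP-1 factor Fosl2 at 0.36. Fosl2 also stood first for Cd83 at 0.41, with Litaf at 0.41 and Tnfaip3 at 0.43, and for Slc16a11 at 0.43, with the kinase Sik1 at 0.43 and Tinagl1 at 0.46. It was first again for Eid3 at 0.33, before the insulin receptor substrate Irs2 at 0.37 and Litaf at 0.39. Fosl2 itself averaged 65.3 ± 18.5 CPM in I/R + ML264, 109 ± 41.5 CPM in I/R and 20.1 ± 5.53 CPM in Sham (SD, n = 4 each). Myo7b was nearest to the survival factor Bcl2l1 at 0.39, the GTPase Gem at 0.44 and the pyrimidine nucleotide carrier Slc25a33 at 0.46. Among the 7 themselves, the closest pairs were Cytip with Cd83 and Gfpt2 with Slc16a11, both at 0.46, and Sytl1 stood 1.54 to 1.78 from every other.

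**Figure D4:**
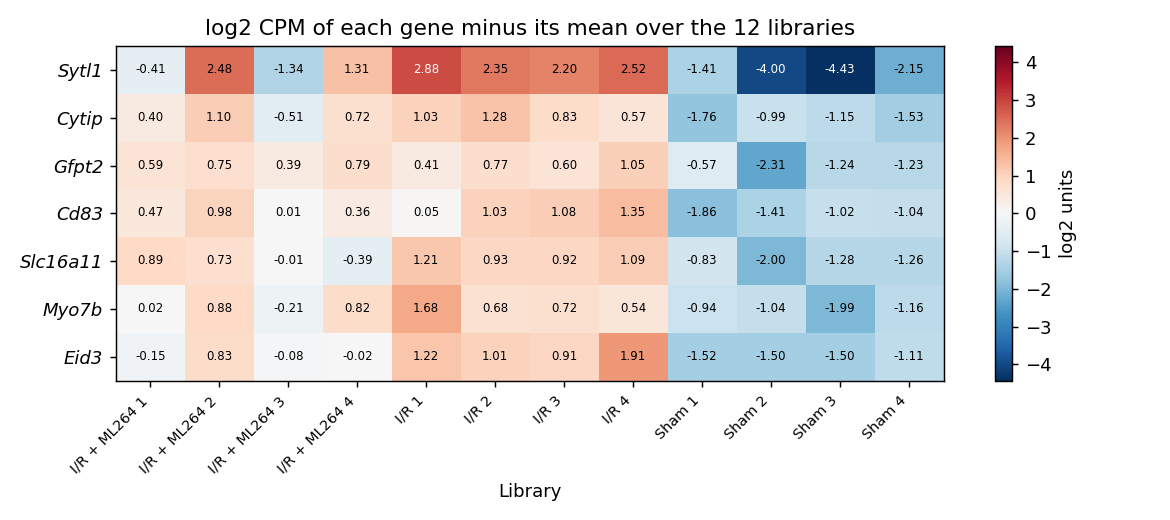
log2 CPM of each gene (rows) in each library (columns: I/R + ML264, I/R, Sham) minus the mean of that gene over the 12 libraries, in log2 units. Red is above and blue below the mean. Sytl1 has the widest range, from -4.43 in Sham library 3 to 2.88 in I/R library 1, and all Sham cells of all 7 genes are below 0.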

How the data were processed

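Frozen mouse heart tissue was profiled in 12 libraries made from 1 ng of cDNA with the Nextera XT kit, which does not mark strand, and read as 100 bp pairs, per the labels' protocols. The authors deposited 1 estimated count per transcript and library (estimated counts, not normalized), made with kallisto on GRCm38 (mm10) after FastQC, per the submitters' processing notes. Tool versions are not given in the sources used. The table listed 104952 transcripts of 33615 gene symbols, 25902 of them with counts, and 45.8% of values were not whole.

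The transcript values of a gene symbol were added up and the sum rounded. Genes were kept with filterByExpr at its minimum of 10 counts and fitted jointly with the edgeR package 4.0.16 under R 4.3.3 (all 12 libraries, TMM, robust quasi-likelihood F-test, Benjamini-Hochberg over 15952 genes), and CPM values are scaled by TMM. The script was tested on simulated data. Gene positions are those of GENCODE M21 (GRCm38), where 94.7% of transcripts had the same version. Limits from 3 counts cover counting error only.

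The 7 genes, the gene lists and the motifs were chosen with earlier results of these data known. Besides the 7, the rule for named genes took their 3 most similar genes each (log2 CPM with a prior count of 2, average of at least 1), paralogs, annotated genes within 5 kb, up to 3 called genes per pathway list, and Klf5, Ddx3y and Arntl. Of the genes so named, 1 is not reported here. Alternatives were other normalizations and filters, DESeq2 1.42.0, covariates, subsets of libraries and leaving out each library. The planned exact permutation test on the share of a gene's leading transcript was not run, because the leading transcript was the same in different libraries only as often as an arbitrary order gives (21.4% of gene comparisons). Sums per gene do not depend on that order. Same-numbered libraries were not treated as pairs. The labels name 2 sequencers for every library and do not say which ran it, and they give no batch and no sex.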

Additional observations from a re-analysis of the deposited data

Results flagged for a closer look

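The distribution of each gene within each group of 4 libraries was examined for a library far from the rest, by the gap to its nearest neighbour divided by the range of the group. Of 21 groups 3 exceeded Dixon's critical value at the 95% level, and chance gives about 1 in 20 groups. For Eid3 in I/R + ML264, library 2 at 4.68 CPM lay above the other 3, at 2.34 to 2.56 CPM, with a gap of 0.907 of the range. For Myo7b in I/R, library 1 at 9.26 CPM lay above the other 3, at 4.16 to 4.75 CPM, with a gap of 0.884. For Eid3 in Sham, library 4 at 1.16 CPM lay above the other 3, at 0.86 to 0.869 CPM, with a gap of 0.968, although the whole range there is 19 to 33 counts.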

How the results depend on the processing

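Of 154 values of the 7 genes between the injured groups (7 genes under 22 alternatives), 151 kept their direction and their side of the threshold. Eid3 became called in 2, and Gfpt2, at -0.19 to 0.03 with 1 library left out, turned to 0.03 without I/R replicate 4. No value against Sham changed sign, between 1.17 and 4.8 for I/R + ML264 and between 1.71 and 6.12 for I/R, but calls were lost in 55 of 154 values of I/R + ML264 against Sham, where Sytl1 became called in 1 (DESeq2), and in 2 of 154 of I/R against Sham (Sytl1 and Gfpt2, with only the Ddx3y libraries). With the Arntl covariate, 5 of the 6 calls in I/R + ML264 against Sham were lost. Low counts limit Sytl1 in Sham most. Counts of called genes moved more. For I/R + ML264 against I/R, 8 genes were called, against 22 without a filter, 144 by DESeq2, 2 with only the Ddx3y libraries, and 0 (without I/R + ML264 replicate 1) to 85 (without I/R + ML264 replicate 2) with 1 library left out. For I/R + ML264 against Sham, 46 were called, against 78 without a filter, 354 by DESeq2, 13 with the Y-linked covariate, 12 with the Arntl covariate, 27 with only the Ddx3y libraries, 27 with only the 2 groups compared, and 9 to 101 with 1 library left out. For I/R against Sham, 1236 were called, 731 higher and 505 lower, and upper-quartile factors gave 620 higher and 676 lower. The total was 451 with the Y-linked covariate, 636 with the Arntl covariate, 553 with only the Ddx3y libraries and 659 to 1485 with 1 library left out. The causes of these shifts were not tested. With a replicate block, 1 gene was called between the injured groups, 19 for I/R + ML264 against Sham and 1009 for I/R against Sham. Correlations of same-numbered libraries were -0.15 to 0.15. Between the injured groups, I/R + ML264 libraries 1 and 3 correlated best with their own number, and libraries 2 and 4 did not. None did so in the comparisons with Sham. With 4 libraries per group these correlations cannot settle whether the numbers mark pairs. The leading-transcript test and its alternatives were not run.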

Other observations

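The rows of single transcripts behaved differently from the sums per gene. Among 6611 genes with at least 2 listed transcripts and at least 100 counts in each library, the transcript with the most counts was the same in 21.4% of gene comparisons over 66 pairs of libraries. An arbitrary order of values within each gene would give 21.4%. For genes with 2 transcripts the share was 50.2%, where an arbitrary order gives 50%, and for genes with 4 it was 25%, the value of an arbitrary order. Over the 12 libraries the leading row was each of the 4 listed transcripts of Sytl1 at least once, 7 of 8 of Cytip, both of Gfpt2 and 8 of 11 of Slc16a11. Isoform levels of these genes were therefore not reported. Cd83, Myo7b and Eid3 have 1 row each, so no order within the gene arises for them. Whether values also moved between genes was not tested.

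Whatever its name, the largest transcript value took 52.2% to 78.7% of the Sytl1 counts in I/R + ML264, 79.2% to 87.5% in I/R and 52.7% to 100.0% in Sham. For Cytip it took 47.3% to 63.5% in I/R + ML264, 60.6% to 80.6% in I/R and 65.8% to 82.9% in Sham. For Gfpt2 the ranges were 55.5% to 76.5% in I/R + ML264, 64.2% to 77.3% in I/R and 56.2% to 69.8% in Sham, and for Slc16a11 they were 48.4% to 68.9%, 30.9% to 69.4% and 57.0% to 85.9% in the same groups. These shares were computed after the data were seen, and the largest of several values is not 1 isoform.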
